A study of Saccharomyces cerevisiae with 6 samples.

Results

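In budding yeast, Saccharomyces cerevisiae, 9 genes of protein aggregate handling and heat stress were followed through a short zymolyase treatment: HSP26, HSP42, HSP104, BTN2, CUR1, HSP12, HSP30, HSP31 and MBF1. They were chosen by name, as the small heat shock proteins, the disaggregase and the stress proteins usually grouped with them. Earlier results of these data were known when they were chosen. Each was read from the brightest probe set that the array annotation assigns to that gene and to no other. All 9 of 9 had such a probe set, 1 for each gene, among 5394 tested probe sets for 5349 genes.

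Small heat shock proteins bind unfolding proteins and hold them in loose assemblies. Hsp104, a ring-shaped ATPase, pulls single chains out of such aggregates together with Hsp70, its J-domain partners and Hsp110, and the chains can then refold. Sorting factors such as Btn2 decide where in the cell aggregates gather. Many of these genes are switched on by the heat shock factor Hsf1, and others, HSP12 among them, mostly by the general stress activators Msn2 and Msn4.

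Zymolyase is an enzyme preparation that breaks down the β-glucan of the yeast wall. The strain is labelled BY4743, a MATa/α diploid with the alleles ura3Δ0, leu2Δ0, his3Δ1, lys2Δ0 and met15Δ0, which both groups share. It grew for 2 days at 25 °C in YPD, a rich medium, and 3 samples were then digested with 30 U/ml of enzyme for 10 min at 37 °C while 3 controls received none. The labels give no temperature for the controls during those 10 min, so enzyme and warming cannot be told apart in any comparison here, which bears directly on heat shock genes. Nor do they say whether the replicates were separate cultures, and p-values therefore measure the spread between these samples, which may be technical. A change in the share of cells that carry a transcript and a change in its amount per cell cannot be told apart either.

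All levels are MAS5 signals, an intensity per probe set after each array was scaled to a common mean, so a level is compared only with the same probe set on another array. The number of arrays, 3 in each group, limits the precision. Every member was bright: its lowest signal was at least 11.7 times (CUR1) and up to 675 times (HSP12) the 99th percentile of the probe sets for a second yeast species on the same array, which served as background. URA3 and LEU2, listed as deleted in this strain, were not at background either, with control signals of 1802 ± 66.8 and 671 ± 38.5 (SD, n = 3). Their lowest signals were 55.0 and 26.1 times that percentile. MF(ALPHA)1 and STE3, markers of α cells, were bright in the control, at 13248 ± 1346 and 3035 ± 89.7, and HO stood at 1214 ± 65.2. For the a-cell markers MFA1 and STE2 the control means were near background, at 32.8 ± 6.94 and 48.4 ± 11.1. Neither the labelled ura3Δ0 and leu2Δ0 alleles nor the MATa/α state can be taken as given from these signals, so the strain is named here only as labelled. The alleles his3Δ1, lys2Δ0 and met15Δ0 were not checked. All 9 members, being bright, passed the filter on dim probe sets in both groups.

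The 9 genes did not move as a block. In limma's test, at a Benjamini-Hochberg adjusted p of 0.05, 4 were higher with zymolyase (BTN2, HSP26, HSP104 and HSP42), 4 were lower (HSP30, CUR1, MBF1 and HSP31) and HSP12 did not pass. BTN2 alone changed by more than 2-fold, and the other called changes lay between a log2 fold change of -0.57 and 0.38. Calls were common on these arrays: 71.5% of all tested probe sets passed, 32.6% upward and 38.9% downward, so passing the test was usual for any gene and an even split over the members is near the background. The groups did not overlap for 7 members, 4 higher and 3 lower, against 73.3% of all tested probe sets, 33.4% higher and 39.9% lower. The median log2 fold change was 0.04 over the members and -0.08 over all tested probe sets.

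**Figure D1:**
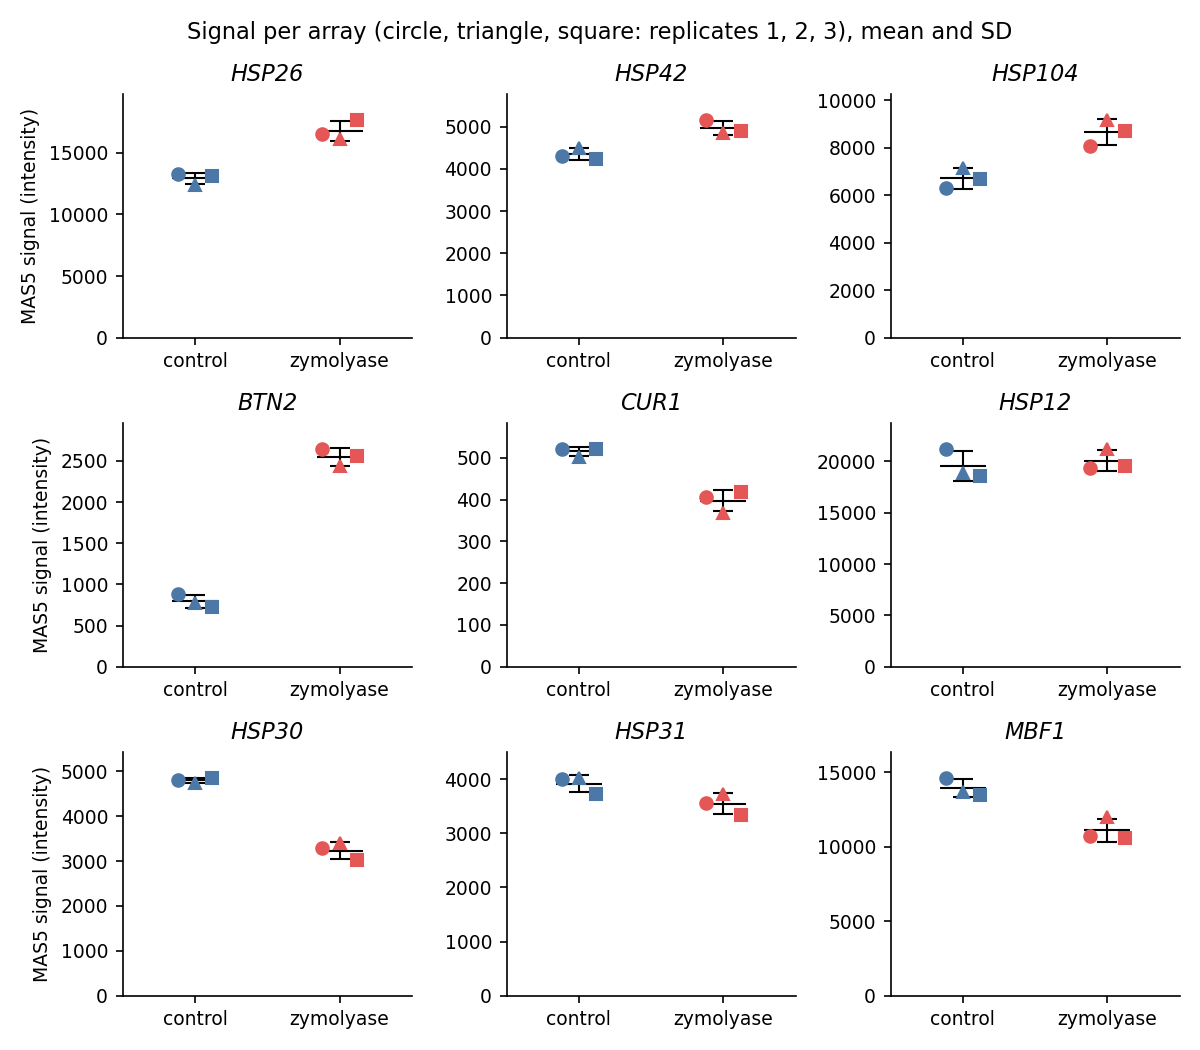
MAS5 signal (intensity, linear axis from 0) of each of the 9 genes on the 3 control and 3 zymolyase arrays; symbols are replicates, and the bar and whiskers are mean and SD. The groups of BTN2 lie far apart, from at most 879 to at least 2436, those of HSP12 and HSP31 overlap, and the other 6 genes have separate groups with smaller gaps.

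HSP26 and HSP42 encode the small heat shock proteins of the α-crystallin type in the yeast cytosol. Hsp26 changes to its binding form on warming, and Hsp42 is active already in unstressed cells and gathers misfolded proteins at peripheral deposits. HSP26 gave signals of 13241, 12378 and 13133 on the control arrays and 16508, 16154 and 17685 on the zymolyase arrays. Every zymolyase array was above every control array, and the ratio of groups was 1.30 (95% interval 1.19 to 1.42, limma adjusted p = 6.0e-05). HSP42 gave 4306, 4504 and 4227 without the enzyme and 5170, 4859 and 4892 with it. Its groups were also separate, by a smaller step, a ratio of 1.14 (95% interval 1.06 to 1.24, limma adjusted p = 0.0045).

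The 2 small heat shock genes were compared within each array, which cancels any scaling of the array. Such a ratio depends on the 2 probe sets, so only its shift between groups is read, here and for the other pairs. The log2 ratio of HSP26 to HSP42 was 1.57 ± 0.10 in the control and 1.75 ± 0.09 with zymolyase (SD, n = 3), an increase of 0.18 ± 0.08 SE. All 3 zymolyase ratios exceeded all 3 control ratios, and the exact two-sided permutation test over 6 arrays gave p = 0.1, the smallest that 3 against 3 allows (0.15 adjusted over the 3 gene pairs compared in this way). A p under 0.05 cannot be reached in this design.

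HSP104, the disaggregase that also cuts yeast prion fibres, gave 6298, 7164 and 6677 in the control and 8067, 9179 and 8721 with zymolyase. The groups did not overlap, and the ratio was 1.29 (95% interval 1.17 to 1.42, limma adjusted p = 0.00020) in the deposited signals. With the length trend described further on removed, its log2 fold change was 0.050 and no longer passed (limma adjusted p = 0.53). Hsp78, the mitochondrial relative of Hsp104, had signals of 1650, 1646 and 1713 in the control and 1926, 1987 and 1922 after digestion, a log2 fold change of 0.22 ± 0.05 SE (limma adjusted p = 0.0018). With the length trend removed it was -0.074 (limma adjusted p = 0.22). Within arrays the log2 ratio of HSP104 to HSP78 rose by 0.15 ± 0.07 SE (exact two-sided permutation p = 0.2, also 0.2 adjusted over the 3 pairs). At 3 against 3 arrays this test could not have passed whatever the values.

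Most partners of Hsp104 in disaggregation had larger fold changes than HSP104 itself. All 10 of 10 listed Hsp70, Hsp110, exchange factor and J-domain genes passed upward, with log2 fold changes between 0.25 and 1.24 and a median of 1.001, where 32.6% of all tested probe sets were called higher. This list and those below were chosen with earlier results of these data known, so their counts are descriptive and test nothing. FES1, an exchange factor, and YDJ1, a J-protein, had log2 fold changes of 0.25 and 0.36, under the 0.37 of HSP104, and the other 8 were above it. That order depends on the length trend, since without it FES1 and YDJ1 had 0.42 and 0.33, above the 0.050 of HSP104. SSA4, the stress-induced cytosolic Hsp70, went from 1254, 1210 and 1200 to 2871, 2849 and 2962. SSE2, one of the Hsp110 genes that act as exchange factors for Hsp70, went from 1398, 1459 and 1319 to 3297, 3270 and 3266, and its relative SSE1 from 3008 ± 107 to 6269 ± 310. SSA1, a cytosolic Hsp70 present without stress, went from 7205 ± 631 to 15493 ± 1297. In each of these 4 the groups were far apart, with ratios between 2.08 and 2.37 against 1.29 for HSP104. The difference between HSP104 and its partners was not tested. SSA1 and SSA2 are nearly identical in sequence, as are SSE1 and SSE2 to a lesser degree, and their signals may be shared in part between copies.

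BTN2 and CUR1 are paralogs. Btn2 sorts misfolded proteins into aggregate deposits near the nucleus and can trap prion proteins, and Cur1 helps to move the J-protein Sis1 into the nucleus. BTN2 gave 879, 777 and 729 on the control arrays and 2649, 2436 and 2563 on the zymolyase arrays. Each zymolyase array was far above each control array, a ratio of 3.21 (95% interval 2.89 to 3.58, limma adjusted p = 1.1e-09), and 98.8% of all tested probe sets had a lower log2 fold change. Both the call and the 2-fold mark together were met upward by 8.06% of the tested probe sets.

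CUR1 went the other way in the deposited signals. With the length trend described further on removed, its log2 fold change was -0.14 and no longer passed (limma adjusted p = 0.12). Its signals were 522, 503 and 521 in the control and 406, 368 and 418 with zymolyase, without overlap, a ratio of 0.77 (95% interval 0.69 to 0.86, limma adjusted p = 0.00063). Within arrays the log2 ratio of BTN2 to CUR1 went from 0.62 ± 0.13 to 2.68 ± 0.06 (SD, n = 3), a shift of 2.06 ± 0.08 SE, or 4.17 times. The 3 values of each group were far from those of the other, between 0.48 and 0.75 in the control and between 2.62 and 2.72 after digestion, and the exact two-sided permutation p was 0.1, the smallest possible (0.15 adjusted over the 3 pairs). SIS1, whose protein both factors bind, rose from 3622 ± 244 to 5228 ± 417 (limma adjusted p = 1.5e-05).

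HSP12 encodes a small, soluble stress protein that folds on membranes and stabilises them. Its signals were 21245, 18833 and 18552 in the control and 19400, 21227 and 19570 with zymolyase, and the groups overlapped. The ratio of 1.03 had a 95% interval of 0.93 to 1.14 (limma adjusted p = 0.61) in the deposited signals. Both the interval and the missing call depend on the length trend described further on, since without it the log2 fold change was 0.35 (95% interval 0.19 to 0.52, limma adjusted p = 0.00091). Other Msn2 and Msn4 targets were mostly higher: of 20 listed, 17 rose, 0 fell and 3 did not pass, with a median log2 fold change of 0.97, where 32.6% of all tested probe sets rose and 38.9% fell. SPI1, a wall protein gene, went from 1646 ± 89.3 to 4698 ± 194, and TFS1, an inhibitor of carboxypeptidase Y, from 1906 ± 114 to 5166 ± 194. XBP1, a repressor, and ALD3, an aldehyde dehydrogenase, complete the 4 with the largest changes, at log2 fold changes of 1.91 and 1.59. The 3 that did not pass were DDR2, HOR7 and RTN2, named after their values were seen.

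HSP30 encodes a membrane protein that restrains the plasma membrane proton pump Pma1 under stress. It had the largest fall among the 9, from 4804, 4737 and 4860 in the control to 3282, 3395 and 3028 with zymolyase. The groups were well separated, at a ratio of 0.67 (95% interval 0.62 to 0.73, limma adjusted p = 1.0e-06), and 17.1% of tested probe sets had a lower log2 fold change. Its relatives MRH1 and YRO2, which encode membrane proteins of the same family, also fell, from 13308 ± 825 to 11216 ± 651 and from 5765 ± 465 to 4435 ± 97.1 (limma adjusted p = 0.0034 and 0.00012). The call of MRH1 was lost with the length trend described further on removed (limma adjusted p = 0.079) and under quantile normalization (0.055). PMA1, the pump gene, rose from 4803 ± 155 to 7630 ± 278 (limma adjusted p = 1.6e-07).

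HSP31 encodes a protein of the DJ-1 family with chaperone activity and an enzymatic activity against methylglyoxal. It gave 3995, 4029 and 3732 in the control and 3563, 3735 and 3347 with zymolyase, and the highest zymolyase array, replicate 2, was just above the lowest control array, replicate 3. The ratio of 0.91 had a 95% interval of 0.83 to 0.99 (limma adjusted p = 0.038). This was the weakest of the 8 calls. With the length trend described further on removed, HSP31 had a log2 fold change of 0.12 and no call (limma adjusted p = 0.087). With control replicate 1, control replicate 2, zymolyase replicate 1 or zymolyase replicate 3 left out, its adjusted p was 0.10, 0.12, 0.068 and 0.14. Of its close relatives HSP32, HSP33 and SNO4, only SNO4 had a probe set of its own name, of a type that can match several transcripts. Its signals were 65.4, 56.7 and 58.6 in the control and 21.1, 37.8 and 34.3 after digestion, where 2 of 3 arrays were above the background percentile (limma adjusted p = 0.0069). Its size is uncertain this near background: the log2 fold change was -0.997 ± 0.28 SE as measured and -0.45 with 50 added to every signal.

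MBF1 encodes a coactivator that links the activator Gcn4 to the TATA-binding protein and also guards the reading frame when ribosomes collide. It gave 14629, 13677 and 13492 in the control and 10741, 12003 and 10576 with zymolyase. The groups did not overlap, and the ratio was 0.80 (95% interval 0.73 to 0.87, limma adjusted p = 0.00039). Both partner genes were also lower, GCN4 from 10468 ± 979 to 7783 ± 299 and SPT15, which encodes the TATA-binding protein, from 2830 ± 204 to 1957 ± 43.5 (limma adjusted p = 0.00010 and 4.3e-06). Among all tested probe sets 38.9% were called lower. With the length trend described further on removed, MBF1 had a log2 fold change of -0.0040 and no call (limma adjusted p = 0.96). GCN4 and SPT15 then had -0.24 and -0.27 and kept theirs. Gcn4 protein is known to be set mainly by translation of its transcript.

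Among the activators themselves, HSF1 rose from 168 ± 3.49 to 416 ± 23.7 (log2 fold change 1.31 ± 0.09 SE, limma adjusted p = 4.9e-08). MSN2 rose from 335 ± 18.6 to 536 ± 35.4 and its paralog MSN4 fell from 959 ± 57.6 to 733 ± 100 (limma adjusted p = 7.6e-06 and 0.0019). These are transcript levels of factors that are controlled mostly after translation. Of 18 other chaperone genes linked to Hsf1, 15 rose, 2 fell and 1 did not pass, with a median log2 fold change of 0.60, against 32.6% higher and 38.9% lower among all tested probe sets. Beside SSA4 and SSA1, given above, the largest changes were those of MDJ1, the mitochondrial J-protein, from 1535 ± 45.0 to 3336 ± 55.1, and of STI1, which links Hsp70 to Hsp90, from 4471 ± 111 to 9683 ± 66.2. The 2 that fell were HCH1, an activator of Hsp90, and HSP10, the mitochondrial co-chaperonin, and HSC82, the constitutive Hsp90, did not pass (these 3 are named after their values were seen). The lists overlap in part, since APJ1, FES1, SIS1, SSA1, SSA2, SSA4, SSE1 and YDJ1 stand in both the disaggregation and the Hsf1 list.

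Of 8 genes of misfolded protein degradation, 6 rose, 0 fell and 2 did not pass, with a median log2 fold change of 0.57, where 32.6% of all tested probe sets rose. With the length trend removed, 4 rose and 1 fell, with a median of 0.17. SAN1, the nuclear ubiquitin ligase for misfolded proteins, went from 174 ± 25.5 to 413 ± 27.3. NPL4, a cofactor of the unfolding ATPase Cdc48, went from 382 ± 26.4 to 641 ± 28.6. The ligase genes HUL5 and UBR1 went from 347 ± 7.34 to 552 ± 4.76 and from 640 ± 53.5 to 991 ± 36.6. These genes are long, with a median of 2621 nt, and 51.5% of the longest group of tested probe sets, described next, were called higher.

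**Figure D2:**
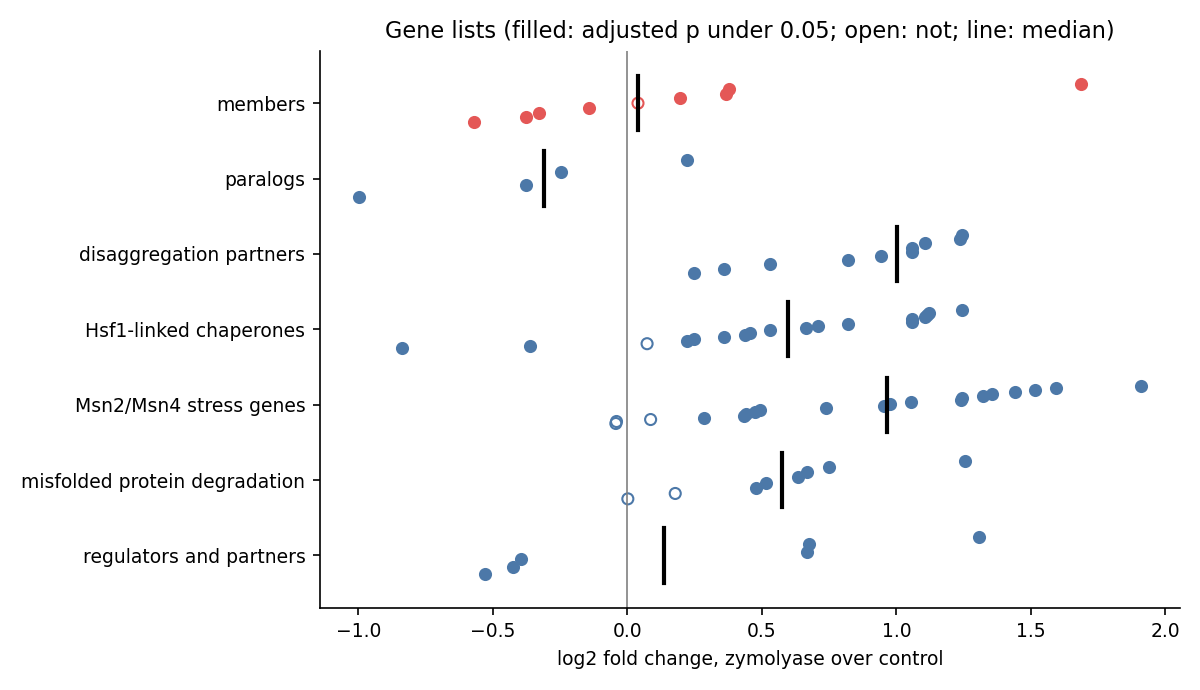
Log2 fold change (zymolyase over control) of every measured gene in 7 lists; filled points passed limma's test at an adjusted p of 0.05, open points did not, and the vertical line is the list's median. The 9 members spread on both sides of 0 around a median of 0.04, with BTN2 apart at 1.68, whereas all 10 disaggregation partners lie above 0 with a median of 1.001.

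Gene length moved with the fold change across these arrays, and with it the reading of several members. The tested probe sets were divided into 4 groups of about equal size by coding length. Among the shortest, up to 768 nt, 14.5% were called higher and 63.8% lower (median log2 fold change -0.40), and among the longest, from 1911 nt, 51.5% were higher and 15.4% lower (median 0.26). In the same arrays the ratio of the 3' to the 5' control probe set of ACT1, a measure of transcript wholeness, was 2.18, 2.06 and 1.86 in the control and 2.44, 2.54 and 2.33 with zymolyase (exact two-sided permutation p = 0.1, the smallest possible). The shortest group holds 5 of the members: HSP12 with 330 nt, MBF1 with 456 nt, HSP26 with 645 nt, HSP31 with 714 nt and CUR1 with 759 nt. HSP30, HSP42 and BTN2, with 999, 1128 and 1233 nt, are in the next group, and HSP104, with 2727 nt, is among the longest. The part of RNA wholeness in these results was not tested.

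With the length trend taken out of every array, 4 members were higher, 1 was lower and 4 did not pass, where 68.9% of all probe sets were called, 28.8% higher and 40.1% lower. BTN2 and HSP30 hardly moved, with log2 fold changes of 1.65 and -0.48 against 1.68 and -0.57 before (limma adjusted p = 1.5e-09 and 7.0e-06). HSP42 stayed at 0.21 (adjusted p = 0.0024). HSP26 had 0.67 in place of 0.38 (adjusted p = 7.5e-07), and HSP12 had 0.35 in place of 0.04 and passed (adjusted p = 0.00091).

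The calls of the longest member and of the short ones that had fallen were lost. HSP104 had 0.050 in place of 0.37 (95% interval -0.10 to 0.20, limma adjusted p = 0.53). CUR1 had -0.14 in place of -0.38 (adjusted p = 0.12), MBF1 -0.0040 in place of -0.33 (adjusted p = 0.96), and HSP31 turned from -0.14 to 0.12 (adjusted p = 0.087). The disaggregation partners, most of them long genes, kept 10 of 10 calls upward with a median of 0.75 in place of 1.001, the Hsf1-linked chaperones had 14 up and 2 down with a median of 0.54, and the Msn2 and Msn4 targets had 18 up and 0 down with a median of 0.70. HSC82 was now among the falls (adjusted p = 0.0091) and HSP10 no longer was (adjusted p = 0.47). Of the degradation genes, UBR1 and SSM4 lost their calls (adjusted p = 0.12 and 0.28) and UFD1 again did not pass (adjusted p = 0.61). RKR1, not called before, was now lower at -0.27 (adjusted p = 0.022). SSM4, UFD1 and RKR1 are named after their values were seen. HSP78 turned from 0.22 to -0.074 (adjusted p = 0.22), and of the HSP30 relatives YRO2 kept its call (adjusted p = 0.00070) and MRH1 lost it (adjusted p = 0.079). The regulators and partners kept direction and call with other sizes: GCN4 had -0.24 in place of -0.42, SPT15 -0.27 in place of -0.53, PMA1 0.35 in place of 0.67, MSN2 0.41 in place of 0.68, MSN4 -0.63 in place of -0.39 and HSF1 1.01 in place of 1.31. The log2 ratio of BTN2 to CUR1 still shifted by 1.79, and that of HSP26 to HSP42 by 0.45 in place of 0.18.

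**Figure D3:**
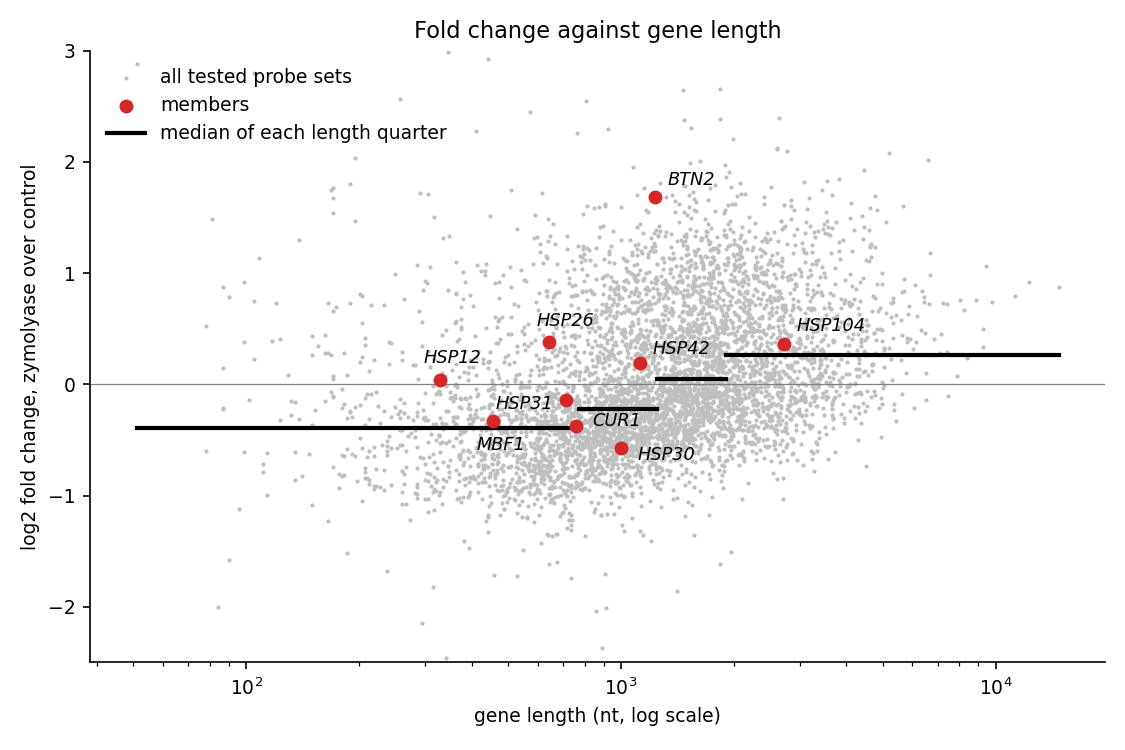
Log2 fold change (zymolyase over control) against coding length (nt, log scale) for the tested probe sets in grey and the 9 members in red; 10 probe sets lie outside the vertical range, and black lines are the medians of the 4 length groups, from -0.40 to 0.26. HSP26 and HSP12 lie above the median of their length group, HSP30 below that of its own, and HSP104 near that of the longest genes.

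**Figure D4:**
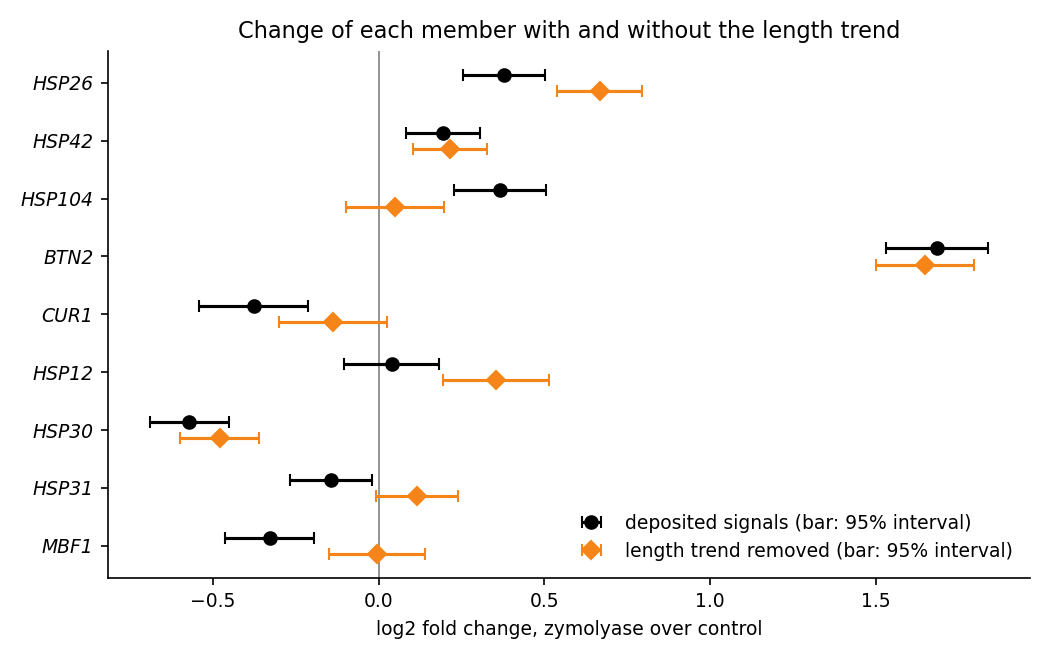
Log2 fold change (zymolyase over control) of each member from the deposited signals (black circles) and with the length trend removed (orange diamonds), each with its 95% interval. BTN2, HSP42 and HSP30 nearly keep their places, HSP26 and HSP12 move up, and HSP104, CUR1 and MBF1 move closer to 0. HSP31 crosses 0, from -0.14 to 0.12.

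Spread between replicates was small for all members. The coefficient of variation was between 1.28% (HSP30) and 9.64% (BTN2) among control arrays and between 3.43% (HSP42) and 7.03% (MBF1) among zymolyase arrays. The highest control signal fell on replicate 1 for 5 members, on replicate 2 for 3 and on replicate 3 for 1, and the highest zymolyase signal on replicates 1, 2 and 3 for 2, 5 and 2 members.

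The profiles over the 6 arrays most like those of the highest and the lowest member were looked up among all tested genes, by the root mean square distance of log2 signals set to the control mean. Nearest to BTN2 were TUP1, a general corepressor, at a distance of 0.053, then VNX1, a vacuolar cation exchanger, and ZWF1, the first enzyme of the pentose phosphate pathway, at 0.081 and 0.083. Their log2 fold changes were 1.71, 1.61 and 1.71. Nearest to HSP30 were PRE9 and RPN12, both proteasome subunits, at 0.021 and 0.032, and SKP1, a subunit of ubiquitin ligases, at 0.025. Their log2 fold changes were -0.58, -0.56 and -0.57. With 2 groups of 3 arrays this likeness is mostly that of the fold change.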

How the data were processed

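The table deposited by the authors holds linear signal intensities, 1 Affymetrix array per sample, made with MAS5 per the submitters' processing notes (version not given in the sources used here). About 500 ng of total RNA was labelled with biotin by a 3' in vitro transcription kit, per the labels. Trimmed by 2% at each end, the mean was 500.41 to 500.43 on every array, so the scaling was kept, and a change in total messenger RNA would not show.

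Of 10928 probe sets, 5498 had 1 gene in the platform annotation and in the RefSeq table of assembly R64, which gave names and lengths (96.8% multiples of 3, hence coding lengths), and 1747 had genes absent from that table and were taken as the second species. Probe sets with a mean signal above the 90th percentile of those, 10.1, were kept. The log2 signal, with nothing added, was modelled in R 4.3.3 by limma 3.58.1 (lmFit, eBayes with intensity trend) as zymolyase minus control, with p-values adjusted by Benjamini-Hochberg over all 5394. The fit was also tried on simulated data of 5394 probe sets with normal noise. Of these, 100 were changed by 1 and 100 by 0.5 (log2), and no others. It found 86 of 100 changes of 1 and 68 of 100 of 0.5, and made 4 false calls. On the real arrays 71.5% of the probe sets were called, a far larger share than was changed in the simulation, so these rates need not hold there.

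To remove the length trend, each array was corrected with a loess curve on log2 length (degree 1, span 0.5), fitted to deviations from the mean over arrays. By rule the text names all members, their paralogs, the regulators and partners, and the 4 largest changes of each other list. It also names the 3 nearest profiles of the members with the highest and lowest fold change. FES1, YDJ1, SIS1 and the genes said to be named after their values were seen stand outside this rule. Strain markers were read only to check the strain. All 76 list genes matched a name. The members, lists and rule were chosen with earlier results of these data known. The alternatives tried were quantile normalization, median centring, 50 added to each signal, other filters, no intensity trend, the replicate block, each array left out, no length trend, and probe sets matching several transcripts left out.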

Additional observations from a re-analysis of the deposited data

How the results depend on the processing

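Over 15 alternatives, BTN2, HSP26, HSP42 and HSP30 kept direction and call in all, with log2 fold changes from 1.62 to 1.76, 0.33 to 0.67, 0.15 to 0.22 and -0.62 to -0.48. Removing the length trend took the members called from 8 to 5 and those called lower from 4 to 1, turned HSP31 to 0.12 and HSP78 to -0.074, and gave HSP12 a call. The cause was not tested. HSP31 also lost its call under quantile normalization (adjusted p = 0.051) and without an intensity trend (0.092). MRH1, a relative of HSP30, lost its call under quantile normalization too (adjusted p = 0.055). With single arrays left out, 7 to 8 members were called, 4 of them higher each time, and 3624 to 3758 of all probe sets, and the shift of BTN2 against CUR1 was 1.99 to 2.13, that of HSP26 against HSP42 0.13 to 0.22 and that of HSP104 against HSP78 0.11 to 0.20. The ACT1 ratio shifted by 0.20 to 0.31 on the log2 scale. Median centring moved all log2 fold changes by 0.05. Same-numbered arrays correlated by 0.05, 0.07 and 0.02 in their deviations, and differently numbered ones by -0.09 to 0.04. Such small values do not settle whether the numbers pair the samples. With the replicate block 8 members and 3933 probe sets were called, and the exact sign-flip test of the 3 within-array shifts could not go below p = 0.25. Dim signal limits SNO4 among the genes whose change is described.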
